A study of Homo sapiens with 9 samples.

Results

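ABTB1, AC113554.1, DDN and TBX10 were among the genes that responded most strongly to rapamycin in K562 cells, with little known role in that response, and ACE overlaps AC113554.1. They are 5 of the 58347 gene rows of the deposited count table and 5 of the 23675 genes that passed a filter on low counts, so all 5 passed. All but ACE were taken from the ranking of the rapamycin change in cells with the HBG1 guide, AC113554.1 and ABTB1 among the 5 highest and TBX10 and DDN among the 5 lowest log2 fold changes. ACE was added because its exons share bases with those of AC113554.1. That contrast therefore chose the genes, and its values are given for them as a description without a test.

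Poly-T selected RNA of K562 cells, a leukaemia line of erythroid character, was sequenced in 9 libraries to ask whether the cells' own BAF chromatin remodelling complex can switch on a chosen gene. Every library, controls included, came from cells that stably expressed 3 components from EF1a promoters. These were dCas9, a Cas9 that binds without cutting, MS2-Fkbp, and SS18-Frb, in which the BAF subunit SS18 is fused to the rapamycin-binding domain Frb. The dCas9 and SS18-Frb cassettes are labelled as lentiviral.

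The groups were the HBG1 promoter guide with DMSO (n = 3) or with 10 nM rapamycin for 24 h (n = 3), and a non-targeting guide with DMSO (n = 1) or with the same rapamycin treatment (n = 2). The labels do not say whether replicates came from separate cultures, so p-values measure only the spread between these libraries, which may be technical. Library totals ran from 19797409 to 31619671 counts. Levels are CPM, read counts relative to the library total, scaled by the TMM method, which sets libraries on a common scale.

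Rapamycin binds the small immunophilin FKBP12, and the pair inhibits mTORC1, the kinase complex that couples nutrient supply to protein synthesis and growth. In these cells it also joins the Fkbp and Frb fusions, which the cells carry with either guide. ABTB1 is an ankyrin-repeat and BTB-domain protein. BTB domains serve many proteins as adaptors to CUL3 ubiquitin ligases. ACE, angiotensin-converting enzyme, is a membrane zinc peptidase that makes angiotensin II, degrades bradykinin and breaks down a thymosin-derived tetrapeptide that restrains blood stem cells. DDN encodes dendrin, a protein of kidney podocytes and of neuronal dendrites. TBX10 encodes a T-box transcription factor related to TBX1.

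ABTB1 (ENSG00000114626) lies at chr3:127672935-127680920 on the plus strand, with 6149 exonic bases, none of them shared with another gene in GENCODE 29 (GRCh38). ACE (ENSG00000159640) lies at chr17:63477061-63498380 on the plus strand, with 8365 exonic bases, of which 6368 (76.1%) belong to no other gene. AC113554.1 (ENSG00000264813) runs along the same strand from within ACE to beyond its end, at chr17:63484823-63521848. DDN (ENSG00000181418) lies at chr12:48995149-48999309 on the minus strand, with 84.6% of its 3749 exonic bases in no other gene. TBX10 (ENSG00000167800) lies at chr11:67631303-67639560 on the minus strand, and its 1548 exonic bases are its own.

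AC113554.1 is annotated as a single transcript of 31 exons that reads through from ACE into the ACE-related pseudogene ACE3P. Its first 13 exons lie within ACE and the other 18 beyond the end of ACE. Of its 4862 exonic bases, 1997 (41.1%) lie in ACE exons and 1820 (37.4%) in ACE3P exons, and 1045 (21.5%) are in no other gene. The models part after a shared exon, at the junctions printed next from the GENCODE 29 transcripts. Reads that cross such a junction or lie beyond it separate the transcripts, and so do reads in exonic bases of ACE that AC113554.1 lacks. Lower case is the end of the shared exon at chr17:63496956-63496985, and capitals are the start of the next exon, at chr17:63497137-63497166 for ACE and at chr17:63507056-63507085 for AC113554.1.
ACE: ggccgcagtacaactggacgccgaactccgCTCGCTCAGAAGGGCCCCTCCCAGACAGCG
AC113554.1: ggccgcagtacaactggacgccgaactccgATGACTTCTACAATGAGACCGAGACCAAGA
Both junctions lie in annotated coding sequence, and the deposited gene totals carry no reads per junction.

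AC113554.1 starts 7762 bases after the first ACE start and 23 bases before a second RefSeq start of ACE, from which the shorter ACE transcripts run. The 250 bases before that second start, at chr17:63484596-63484845 on the plus strand (RefSeq, GRCh38.p14), are printed because both starts lie here. Capitals mark the 23 bases that already belong to the first exon of AC113554.1.
ACE second start: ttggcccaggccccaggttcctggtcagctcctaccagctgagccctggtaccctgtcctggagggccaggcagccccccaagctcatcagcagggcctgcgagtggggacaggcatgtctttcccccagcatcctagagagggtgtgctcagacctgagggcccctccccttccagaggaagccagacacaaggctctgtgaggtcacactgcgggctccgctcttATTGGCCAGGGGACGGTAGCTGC
The G and C content of this stretch was 64.8%, against 75.2% before the first ACE start and 67.2% before the TBX10 start. None of these 3 windows of 250 bases held CACGTG (an E-box, in 6.34% of 35116 RefSeq promoter windows of that length), the longer CLEAR element (0.308%), TGATGNAA (3.14%), GTAAACA (2.98%), AGATAA (9.17%) or TTCNNNGAA (6.57%) on either strand. The CLEAR element contains the E-box. The absence says only that these letters are not in these windows.

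**Figure D1:**
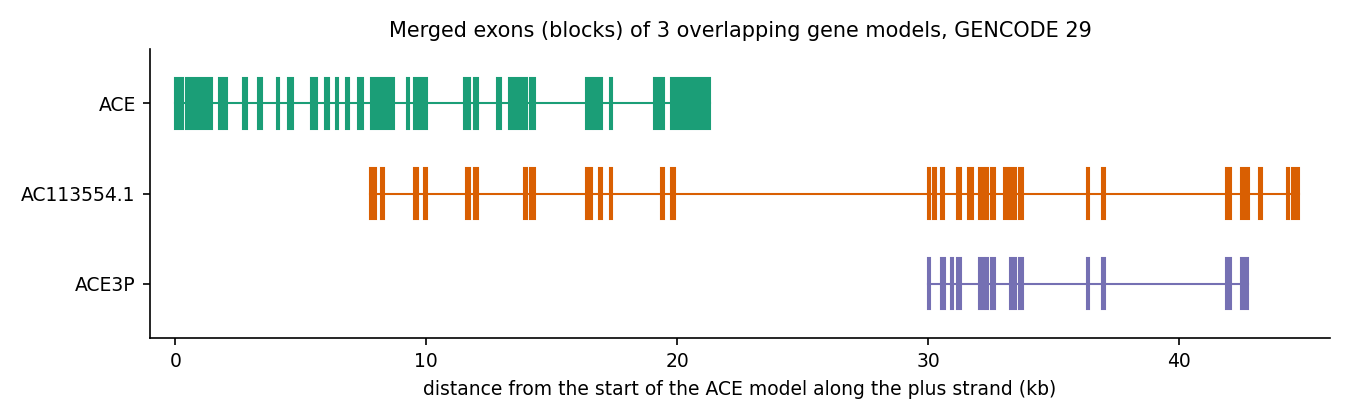
Merged exons (blocks) of ACE, AC113554.1 and ACE3P in GENCODE 29, drawn to scale against the distance in kb from the start of ACE. The first 13 exons of AC113554.1 fall within ACE, and ACE3P lies under its later exons.

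Before the results, 2 features of the libraries bear on them. Replicate 1 of the HBG1 guide stood apart from replicates 2 and 3: the chi-square statistic per gene was 15 or more between replicate 1 and each other DMSO or rapamycin replicate, against 4.58 and 7.38 between replicates 2 and 3. The K562 identity was checked with 9 erythroid markers, all above 1 CPM in every library, with a sum of 5290 to 16700 CPM under DMSO and 5900 to 19700 CPM under rapamycin. The megakaryocyte gene PF4 was at 0 in every library, and the summed epithelial markers (KRT8, KRT18 and EPCAM) ran from 530 to 723 CPM under DMSO and from 688 to 773 CPM under rapamycin. Of the other marker lists, 2 of 5 megakaryocyte, 1 of 4 monocyte, 2 of 5 lymphocyte and 2 of 4 fibroblast markers were above 1 CPM in every library. The part of these markers in the results was not tested.

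ABTB1 stood at 1.52, 1.26 and 1.38 CPM in replicates 1, 2 and 3 of the HBG1 guide with DMSO and at 4.8, 4.32 and 4.32 CPM with rapamycin. In the non-targeting libraries it stood at 1.33 CPM with DMSO and at 4.42 and 4.32 CPM with rapamycin. All 5 rapamycin libraries lay above all 4 DMSO libraries, and the spread within each group was small beside the gap. In bulk RNA, a change in the number of cells that express a gene and a change in its RNA per cell cannot be told apart.

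ACE stood at 2.11, 3.49 and 2.95 CPM with the HBG1 guide and DMSO and at 9.29, 9.93 and 8.06 CPM with rapamycin. The non-targeting DMSO library had 2.32 CPM and the rapamycin libraries 9.71 and 7.96 CPM. ACE had the highest CPM of the 5 genes under rapamycin, on a scale that favours its long model.

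AC113554.1 stood at 0.778, 1.81 and 1.18 CPM with the HBG1 guide and DMSO and at 4.95, 4.8 and 3.9 CPM with rapamycin. It had 1.55 CPM in the non-targeting DMSO library and 4.22 and 2.96 CPM in the rapamycin libraries of that guide. Among the HBG1 guide DMSO libraries replicate 1 was the lowest and replicate 2 the highest, for this gene as for ACE.

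DDN went the other way, from 6.19, 9.63 and 10.2 CPM with the HBG1 guide and DMSO to 3.66, 3.94 and 3.28 CPM with rapamycin. With the non-targeting guide the DMSO library had 7.99 CPM and the rapamycin libraries 4.26 and 4.14 CPM. The rapamycin libraries lay close together, while replicate 1 was the lowest of the DMSO libraries.

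TBX10 stood at 3.3, 4.47 and 4.97 CPM with the HBG1 guide and DMSO and at 1.45, 2.8 and 0.844 CPM with rapamycin. With the non-targeting guide it had 3.56 CPM in the DMSO library and 1.62 and 1.5 CPM in the rapamycin libraries. The rapamycin replicates of the HBG1 guide were the least alike of any group, and the highest of them came near the lowest DMSO library without reaching it.

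**Figure D2:**
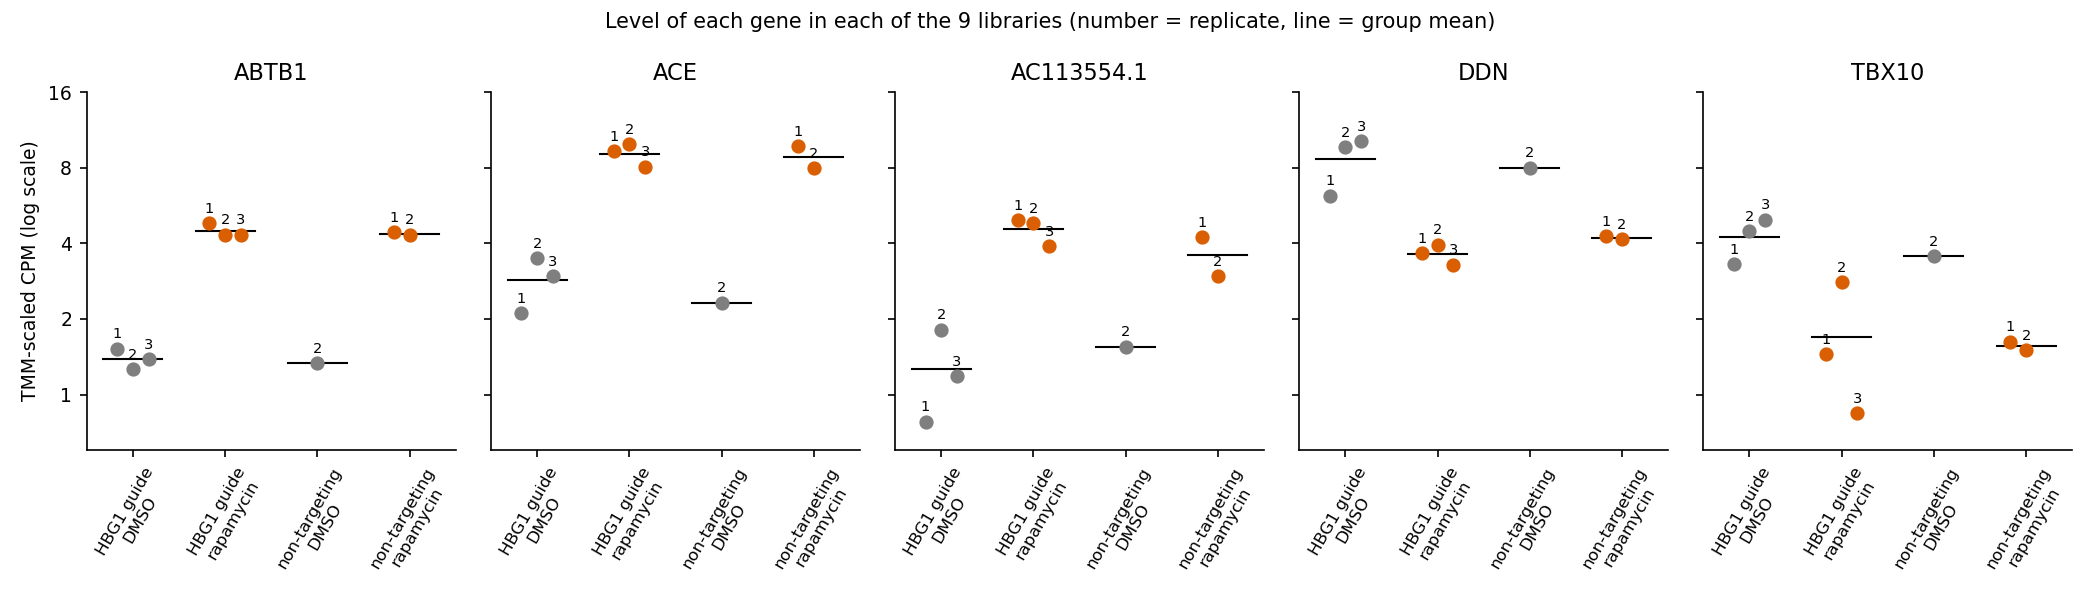
TMM-scaled CPM (log axis) of each gene in each of the 9 libraries, with replicate numbers beside the points and a line at each group mean. ABTB1, ACE and AC113554.1 lie higher, and DDN and TBX10 lower, in all 5 rapamycin libraries than in all 4 DMSO libraries.

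Such complete separation in the direction of higher levels was found for 6.38% of all tested genes, and in the direction of lower levels for 8.29%. The ranking that chose 4 of the genes required separation with the HBG1 guide, so the separation of those 6 libraries is no finding.

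Per kilobase of annotated exon, TBX10 (2.74 ± 0.551 CPM per kb, SD, n = 3) and DDN (2.32 ± 0.582) were the highest of the 5 genes with the HBG1 guide and DMSO, and they did not differ beyond their spread. ACE (0.341 ± 0.0834), AC113554.1 (0.259 ± 0.108) and ABTB1 (0.225 ± 0.0217) followed, and neighbours in this order overlapped, while ACE lay above ABTB1 in every library of the group. With rapamycin the 5 genes lay closer together, as TBX10 had 1.1 ± 0.648, ACE 1.09 ± 0.114, DDN 0.968 ± 0.0887, AC113554.1 0.936 ± 0.117 and ABTB1 0.729 ± 0.0449 CPM per kb. Neighbours among the first 4 overlapped, and ABTB1 lay below AC113554.1 in every library of the group.

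In the contrast that chose the genes, the HBG1 guide with rapamycin against DMSO, ABTB1 was higher by a log2 fold change of 1.69 (SE 0.24), AC113554.1 by 1.85 (SE 0.31) and ACE by 1.67 (SE 0.21). DDN was lower, at -1.26 (SE 0.21), and so was TBX10, at -1.34 (SE 0.35). In that contrast 6.8% of tested genes passed an adjusted p of 0.05 (edgeR, Benjamini-Hochberg), 2.75% higher and 4.05% lower, and nothing is read from the genes' place among them. Upper quartile scaling turned this balance, with 819 genes higher and 673 lower in place of 650 and 959. With replicate number as a block, 3547 genes passed in place of 1609. The numbers were taken to pair these libraries, although the correlations between libraries set only replicate 1 apart.

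Among 1556 called genes with a symbol, a mean log2 CPM of at least 1 and separated groups, AC113554.1 and ABTB1 ranked 4th and 5th from the top, after HBG1 (2.71), HBG2 and BGLT3. Just outside were ACE (1.67), TCP11L2 (1.67) and AC007036.3 (1.53). From the bottom TBX10 and DDN ranked 4th and 5th, after CHAC1, DDIT4 and DDIT4-AS1. Just outside were SNORD100 (-1.21), STAR (-1.19) and AC007952.4 (-1.19). The limits between inside and outside are narrow beside the standard errors.

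Within same-numbered pairs of HBG1 guide libraries, the rapamycin to DMSO ratio of ABTB1 was 3.15, 3.44 and 3.14 for replicates 1, 2 and 3. This was the most even ratio of the 5 genes. ACE gave ratios of 4.41, 2.84 and 2.73, and AC113554.1 gave 6.37, 2.64 and 3.3, so replicate 1 had the highest ratio of both overlapping genes. The inverse ratio, DMSO to rapamycin, was 1.69, 2.44 and 3.12 for DDN and 2.29, 1.59 and 5.88 for TBX10. Replicate 3 was the most lowered for both genes.

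Without both replicate 1 libraries of the HBG1 guide, a choice made after the data were seen, the log2 fold changes with the HBG1 guide were 1.72 for ABTB1, 1.51 for AC113554.1, 1.47 for ACE, -1.47 for DDN and -1.42 for TBX10. TBX10 depended most on single libraries: it stood at -1.92 without rapamycin replicate 2 and at -0.99 without rapamycin replicate 3. AC113554.1 ran from 1.58 without DMSO replicate 1 to 2.23 without DMSO replicate 2.

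The non-targeting libraries were not used to choose the genes, and they asked whether rapamycin moves them in cells whose guide has no target. The fit took its spread from all libraries, including the HBG1 guide libraries used in that choice. The p-values below are therefore not wholly independent of the choice. In edgeR's quasi-likelihood test, adjusted by the Benjamini-Hochberg method, ABTB1 rose by 1.71 on the log2 scale (SE 0.38) at an adjusted p of 0.0419. ACE rose by 1.93 (SE 0.34) at an edgeR adjusted p of 0.0161. AC113554.1 was at 1.22 (SE 0.48, 95% interval 0.21 to 2.23), DDN at -0.93 (SE 0.3, -1.56 to -0.29) and TBX10 at -1.19 (SE 0.51, -2.27 to -0.11). These 3 did not pass, with edgeR adjusted p of 0.253, 0.161 and 0.302 and unadjusted p of 0.0214, 0.00717 and 0.0333. Thus 2 of the 5 genes passed, where 0.891% of all tested genes did (211 genes, 0.325% higher and 0.566% lower). With upper quartile scaling 86 genes were higher and 84 lower, in place of 77 and 134.

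As fold changes, ABTB1 was 3.27-fold and ACE 3.81-fold higher with rapamycin, AC113554.1 was 2.32-fold higher, and DDN and TBX10 were 1.9-fold and 2.28-fold lower. A fold of at least 2 was reached by 10.9% of tested genes in the direction of higher levels and by 4.21% in the direction of lower levels. Both rapamycin libraries lay on the same side of the DMSO library for each of the 5 genes, as they did for 38.4% (higher) and 35.4% (lower) of tested genes.

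The non-targeting DMSO group is 1 library, whose spread was assumed to be that of the other groups. Its counts were 31 for ABTB1 (exact Poisson 95% interval 21.1 to 44), 54 for ACE (40.6 to 70.5), 36 for AC113554.1 (25.2 to 49.8), 186 for DDN (160 to 215) and 83 for TBX10 (66.1 to 103). These intervals cover counting error only. The ABTB1 call was lost without non-targeting rapamycin replicate 1 (adjusted p = 0.178) or 2 (0.155), without HBG1 guide DMSO replicate 2 (0.0632) or 3 (0.0651), and without HBG1 guide rapamycin replicate 2 (0.0565) or 3 (0.0758). The ACE call was lost without non-targeting rapamycin replicate 1 (adjusted p = 0.132) or 2 (0.0574). DDN passed, at adjusted p = 0.0336, when the 3 non-targeting libraries were fitted alone, and at 0.0309 without both replicate 1 libraries of the HBG1 guide.

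**Figure D3:**
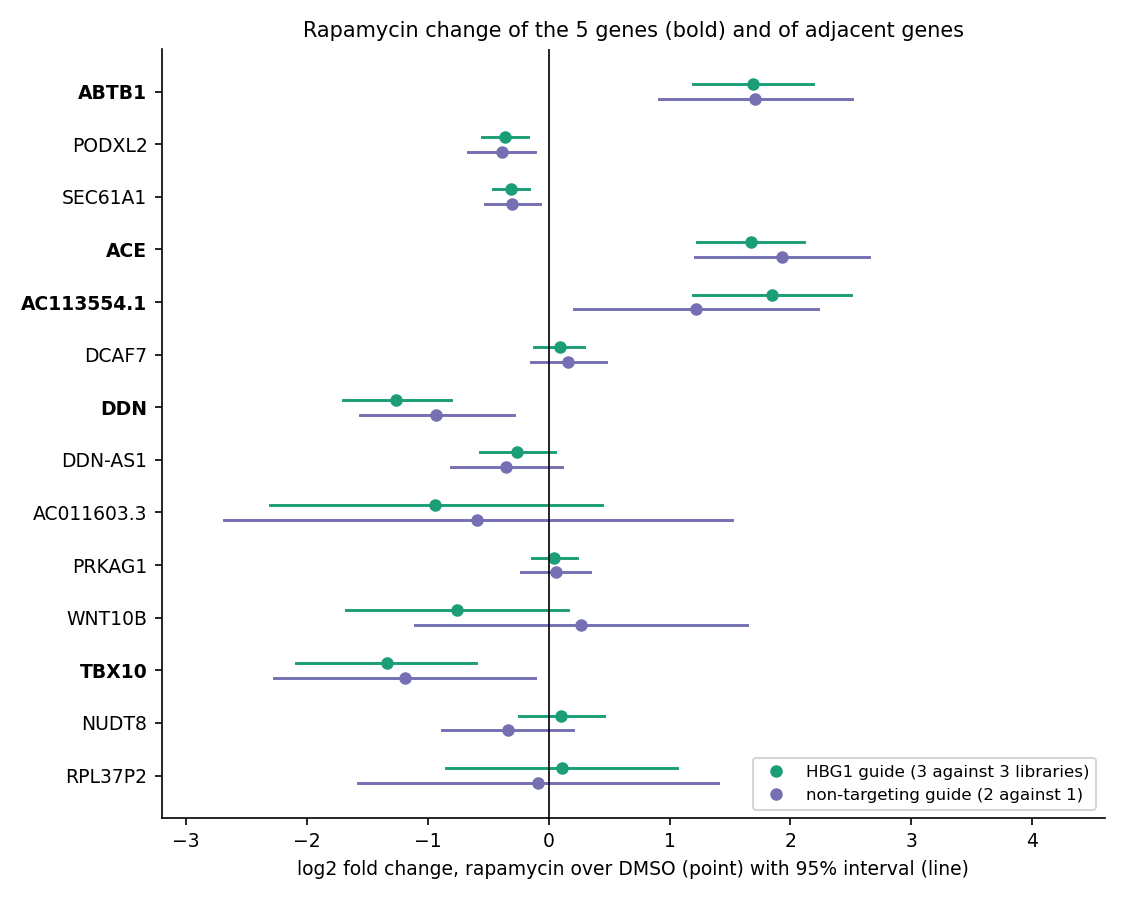
Log2 fold change of rapamycin over DMSO (points, with 95% intervals as lines) with the HBG1 guide and with the non-targeting guide. Shown are the 5 genes, tested genes that overlap them and nearest tested genes, which lie up to 370721 bases away. ABTB1 (1.69 and 1.71) and ACE (1.67 and 1.93) lie near each other with both guides, while the adjacent PODXL2 lies below 0.

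Whether the guide altered these genes in treated cells was compared between the HBG1 guide and the non-targeting guide under rapamycin, a contrast that shares the HBG1 guide rapamycin libraries with the ranking. None of the 5 passed (edgeR, Benjamini-Hochberg), where 0.0296% of tested genes did, 0.0169% higher and 0.0127% lower. The log2 difference was 0.03 for ABTB1 (95% interval -0.49 to 0.56, adjusted p = 0.984), 0.04 for ACE (-0.42 to 0.5, 0.981), 0.33 for AC113554.1 (-0.35 to 1.02, 0.875), -0.22 for DDN (-0.72 to 0.29, 0.893) and 0.09 for TBX10 (-0.78 to 0.97, 0.973). The 3 HBG1 guide libraries lay below both non-targeting libraries for DDN, as for 11.3% of tested genes, and the groups overlapped for the other 4. Without adjustment, 1484 genes had a p under 0.05 and none of the 5 was among them. DESeq2 also passed none of the 5, where it passed 0.0621% of the genes to which it gave an adjusted p.

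The interaction, which sets the rapamycin change with the HBG1 guide against that with the non-targeting guide, includes the contrast that chose the genes. It was -0.02 for ABTB1 (95% interval -0.94 to 0.9), -0.25 for ACE (-1.08 to 0.57), 0.63 for AC113554.1 (-0.55 to 1.81), -0.33 for DDN (-1.12 to 0.46) and -0.15 for TBX10 (-1.49 to 1.18). None of the 5 passed, each with an edgeR adjusted p of 1 and an unadjusted p of 0.272 or more, where 0.00422% of tested genes passed. The intervals are wide, and they do not show that the changes were alike with both guides. DESeq2 passed 0 of all genes here, with 592 at an unadjusted p under 0.05.

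Reads of ACE and AC113554.1 come from overlapping models on the same strand, so a base in a shared exon cannot be assigned to either. AC113554.1 took 27%, 34.2% and 28.6% of the summed count of both genes in the HBG1 guide DMSO replicates 1, 2 and 3 and 34.8%, 32.6% and 32.6% in the rapamycin replicates. With the non-targeting guide the share was 40% in the DMSO library and 30.3% and 27.1% in the rapamycin libraries. The values with DMSO and with rapamycin overlapped over all libraries, although the non-targeting DMSO library lay above both rapamycin libraries of its guide. Over all libraries, 625 counts were assigned to AC113554.1 against 1337 to ACE. In the non-targeting DMSO library the exact binomial 95% interval of the share ran from 29.8% to 50.9%.

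**Figure D4:**
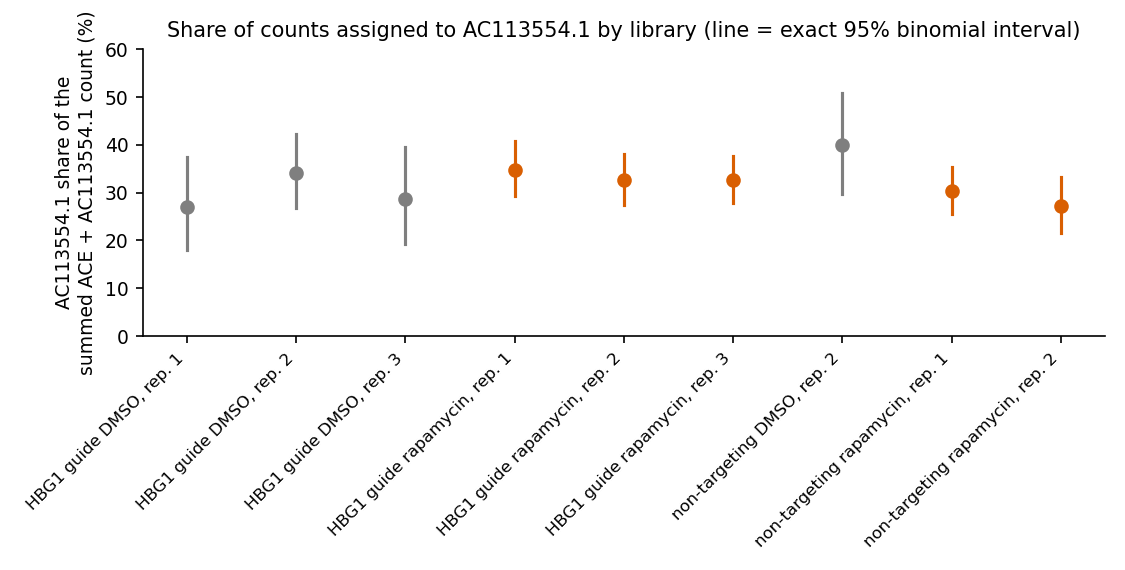
Share of the summed ACE and AC113554.1 count assigned to AC113554.1 in each library (points), with exact 95% binomial intervals (lines). The shares run from 27% to 40%, and the DMSO and rapamycin libraries overlap.

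Counted together, the pair rose by 1.68 on the log2 scale (SE 0.32) with the non-targeting guide, at an edgeR adjusted p of 0.0249, and it stood at 1.73 (SE 0.2) with the HBG1 guide. The interaction of this summed row was 0.05 (SE 0.37), where ACE alone had -0.25 and AC113554.1 alone 0.63. The sum was formed after the data were seen.

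If reads in shared exons had been set aside by the counting, only the bases of each gene's own would have given counts. On that length AC113554.1 would stand at 1.2 CPM per kb with the HBG1 guide and DMSO and at 4.35 with rapamycin, above ACE at 0.447 and 1.43. Over all annotated exons the order was the opposite, with 0.259 and 0.936 for AC113554.1 and 0.341 and 1.09 for ACE. How reads in overlapping exons were counted is not given in the sources used here, so the order of these genes depends on a setting that is not known. ACE3P, which shares 92.2% of its exonic bases with AC113554.1, had a count of 0 in all 9 libraries.

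Beside the ACE pair, DCAF7, the next tested gene downstream, had log2 fold changes of 0.09 with the HBG1 guide (adjusted p = 0.673) and 0.16 with the non-targeting guide (adjusted p = 0.698, edgeR for both). The nearest tested gene upstream, AC005828.5, had mean levels of 0.153 CPM or less in every group, too low for its change to be read.

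ABTB1 starts 126 bases after the end of PODXL2, which encodes a sialomucin of the podocalyxin family on the same strand, so reads past the end of PODXL2 could enter ABTB1. PODXL2 fell with the HBG1 guide, with a log2 fold change of -0.36 (SE 0.09, edgeR adjusted p = 0.0235), and stood at -0.39 with the non-targeting guide (adjusted p = 0.177). The call was lost without both replicate 1 libraries (0.0887), without DMSO replicate 1 (0.0787) or 3 (0.0921) and without rapamycin replicate 2 (0.0535) or 3 (0.0719). ABTB1 had 2.38% to 2.75% of the summed count of both genes in the DMSO libraries and 9.25% to 11.3% in the rapamycin libraries, with no overlap. ABTB1 was chosen from genes whose HBG1 guide groups separate, so the separated shares are no further finding. On the other side the nearest tested gene, SEC61A1, lies 370721 bases from ABTB1 and encodes a subunit of the protein-conducting channel of the endoplasmic reticulum. SEC61A1 fell by 0.31 on the log2 scale with the HBG1 guide (SE 0.07, edgeR adjusted p = 0.0173). It stood at -0.3 with the non-targeting guide (edgeR adjusted p = 0.205). Leaving out DMSO replicate 2 or 3 ended its call (0.0786 and 0.0886).

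DDN overlaps 2 genes on the opposite strand, and no strand setting is given in the sources used here, so reads of the shared bases may belong to either. DDN-AS1 shares 300 exonic bases with it, 8% of those of DDN. It had log2 fold changes of -0.26 (edgeR adjusted p = 0.337) and -0.35 (adjusted p = 0.51) with the HBG1 and non-targeting guides, and mean levels of 9.82 CPM with DMSO and 8.18 CPM with rapamycin in the HBG1 guide cells. Its share of the summed count of both genes was 47.7% to 60.5% in the 4 DMSO libraries and 64.6% to 73% in the rapamycin libraries, with no overlap. DDN was chosen in the same way as ABTB1, so here too the separated shares are no further finding. The span of DDN-AS1 also covers PRKAG1 on the opposite strand, so reads of PRKAG1 could have entered its count. Whether their exons share bases was not examined.

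AC011603.3, whose 279 exonic bases all lie in DDN, had 121 counts over the 9 libraries against 1315 for DDN. Its log2 fold change of -0.94 with the HBG1 guide had an edgeR adjusted p of 0.459. PRKAG1, a subunit of the energy sensor AMPK on the same strand whose annotated end lies 2965 bases from the start of DDN, had log2 fold changes of 0.04 and 0.06. WNT10B on the other side had -0.76 with the HBG1 guide (adjusted p = 0.348) and 0.27 with the non-targeting guide (adjusted p = 0.911).

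TBX10 shares no exonic base with another gene. NUDT8, a Nudix hydrolase gene 1373 bases away on the same strand, had log2 fold changes of 0.1 (edgeR adjusted p = 0.786) with the HBG1 guide and -0.34 (adjusted p = 0.601) with the non-targeting guide. TBX10 had 21.9% to 37.3% of the summed count of both genes in the DMSO libraries and 7.16% to 19.3% in the rapamycin libraries, with no overlap. This too is no further finding, as TBX10 was chosen in the same way. The pseudogene RPL37P2 on the other side had log2 fold changes of 0.11 and -0.09.

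The genes whose levels ran most like each of the 5 were sought by Pearson's r of log2(CPM + 0.5) over the 9 libraries among 17045 genes. These values are descriptions: the points are 9 libraries that differ mainly by treatment and share library totals. ABTB1 was most like HDAC6 (0.996), a cytoplasmic deacetylase, TXNIP (0.993), a thioredoxin-binding arrestin, and ACCS (0.991). These genes moved less than ABTB1, with log2 fold changes of 0.55, 0.4 and 0.5 with the HBG1 guide. ACE was most like WBP2 (0.979), MED15P9 (0.979) and IGF1R (0.976), the receptor of insulin-like growth factor, which had log2 fold changes of 0.39, 0.68 and 0.58. AC113554.1 was most like PAN2 (0.969), a subunit of a deadenylase that trims poly(A) tails, AC239803.1 (0.964) and C7orf50 (0.964). Spearman's rank correlation was lower for several genes, at 0.717 for TXNIP, 0.783 for WBP2, 0.8 for MED15P9 and 0.883 for HDAC6. For the others named here, and for those of DDN and TBX10, it was 0.883 to 0.983.

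DDN was most like AC099811.2 (0.992), NCAPH (0.992), a condensin subunit, and WDR82 (0.987), which had log2 fold changes of -0.36, -0.14 and -0.36 with the HBG1 guide. TBX10 was most like ERF (0.969), an ETS-family repressor, NCLN (0.961) and FBXO41 (0.96), at -0.26, -0.3 and -0.28. Every one of these 15 genes moved by less than its counterpart. The 5 genes lie near the ends of the ranking of changes, so this says little about the 15. Among the 5, ABTB1 and ACE had r = 0.96, as did AC113554.1 and ACE, and DDN and TBX10 had 0.91. The inverse relation between ABTB1 and DDN was -0.95. These values follow from the choice of genes that all separate the treatments.

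Related genes were then read from lists of each protein's kin and partners. Of the BTB adaptor and CUL3 genes, 32 of 34 were tested, and with the HBG1 guide 1 rose, 1 fell and 30 did not pass (edgeR, Benjamini-Hochberg). That is 6.25%, beside 6.8% of all tested genes. DESeq2 called 4 of the 31 to which it gave an adjusted p, with EEF1A1 and KLHL22 also higher, where it called 14.6% of all genes given one. BTBD2, a BTB-domain protein, rose from 33 ± 2.82 to 50.8 ± 2.79 CPM (SD, n = 3 each), a log2 fold change of 0.62 (SE 0.09, edgeR adjusted p = 0.00107). KBTBD8, a CUL3 adaptor, fell by 0.65 (SE 0.14, adjusted p = 0.013). The ABTB1 paralogue ABTB2 was at 0.08 (adjusted p = 0.904) and CUL3 at -0.13 (0.41). EEF1A1, the elongation factor to which ABTB1 has been reported to bind, was at 0.23 (0.0575). The median of the list was 0, against 0.02 over all tested genes.

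Of the angiotensin-axis and peptidase genes, 21 of 29 were tested, and with the HBG1 guide 1 rose, 2 fell and 18 did not pass, which is 14.3% of a short list, beside 6.8% of all tested genes. DESeq2 called 4 of the 17 to which it gave an adjusted p, among them CTSD as higher and PREP and THOP1 as lower. CTSD, the lysosomal protease cathepsin D, rose by 0.4 (SE 0.08, edgeR adjusted p = 0.00793). TMSB4X, which encodes thymosin beta-4, the source of the tetrapeptide that ACE degrades, fell by 0.48 (SE 0.13, adjusted p = 0.0303). PREP, a prolyl peptidase that can release that tetrapeptide, fell by 0.27 (SE 0.08, adjusted p = 0.0451). The CTSD call was lost without DMSO replicate 2 (0.0526) or rapamycin replicate 3 (0.0545). The TMSB4X call was lost without DMSO replicate 2 (0.0948) or 3 (0.119), without rapamycin replicate 2 (0.111) or 3 (0.0637) and with DESeq2 (0.071). The PREP call was lost in 12 of 18 alternatives, among them leaving out any 1 of the 6 HBG1 guide libraries or either non-targeting rapamycin library, with adjusted p of up to 0.144. The list's median was 0.04.

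Few genes of the classical hormone axis were present. AGT, the angiotensin precursor, had at most 5 counts in a library, and the receptors AGTR1 and AGTR2 and the bradykinin receptor BDKRB2 had a count of 0 in all 9 libraries. The membrane peptidase MME was at 0.32 with the HBG1 guide (edgeR adjusted p = 0.374).

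Of the dendrin partner, podocyte and postsynaptic genes, 20 of 24 were tested and none passed with the HBG1 guide, with 1 at an unadjusted p under 0.05 and a median of -0.04. The podocyte gene NPHS1, which encodes nephrin, had at most 10 counts in a library and was not tested. WT1, a podocyte transcription factor also made in leukaemia cells, was at -0.49 (SE 0.15, edgeR adjusted p = 0.0545) and was the 1 gene that DESeq2 called among the 11 of the list to which it gave an adjusted p. The dendrin-binding proteins MAGI1, MAGI2 and CD2AP were at 0.34, 0.35 and -0.16, with adjusted p of 0.321, 0.514 and 0.316.

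Of the other T-box genes, 7 of 16 were tested and none passed with the HBG1 guide, with 1 at an unadjusted p under 0.05 and a median of -0.05. TBX1, the closest listed relative of TBX10, was at -0.13 (SE 0.13, edgeR adjusted p = 0.613), TBX18 at -0.05 (adjusted p = 0.842) and MGA at -0.09 (adjusted p = 0.689). DESeq2 gave an adjusted p to 4 of the 7 and called 0 of these.

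**Figure D5:**
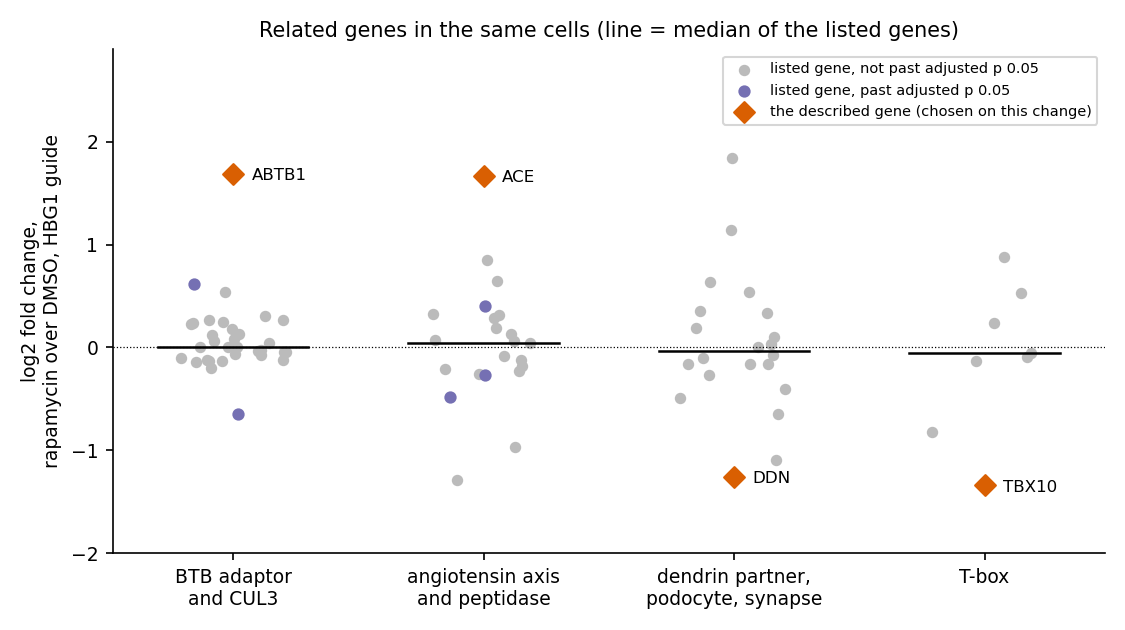
Log2 fold change with the HBG1 guide, rapamycin over DMSO, of the tested genes of each list (points, horizontally spread for legibility), with the list's median as a line and the described gene as a diamond. The list medians lie between -0.05 and 0.04. The genes shown as diamonds were chosen on this change, except ACE, which was added for its overlap with AC113554.1.

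With the non-targeting guide none of the listed genes passed (edgeR, Benjamini-Hochberg), where 0.891% of all tested genes did. At an unadjusted p under 0.05 there were 3 of the 32 BTB and CUL3 genes, 6 of the 21 peptidase genes, 1 of the 20 dendrin-list genes and 0 of the 7 T-box genes, beside 3349 of all 23675 tested genes. Higher levels were seen in 18, 11, 13 and 5 of them, beside 53.1% of all tested genes. DESeq2 called none, but it gave an adjusted p to only 26, 15, 8 and 3 of them, and it called 6.13% of all genes given one.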

How the data were processed

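RNA was measured by poly-T selected sequencing in 9 K562 libraries. The authors deposited 1 table of raw read counts per Ensembl gene. The submitters' processing notes list STAR 2.7.3a, featureCounts, Subread 2.0.0, R 4.1.2, limma 3.34.9, edgeR 3.24.0 and GRCh38 (hg38), without role or order. The annotation release, the strand setting and the treatment of reads that overlap several genes are not given in the sources used here. Symbols and positions came from GENCODE 29, which held 58039 of 58347 IDs (99.47%).

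Groups came from the sample titles. The counts went into edgeR 4.0.16 (R 4.3.3): filterByExpr by group (minimum count 10, leaving 23675 genes), TMM scaling (factors 0.977 to 1.02) and 1 quasi-likelihood fit of all 9 libraries with 1 mean per group. Benjamini-Hochberg adjustment ran over all tested genes, with calls at an adjusted p under 0.05. SE was computed as log2 fold change over the root of F, and 95% intervals use its t quantile. The procedure was tested on simulated data. Alternatives covered scaling, DESeq2 1.42.0, filters, replicate blocks, subsets of libraries and each library left out. Leaving out both replicate 1 libraries and adding ACE to AC113554.1 were chosen after seeing the data.

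The genes, lists and tests were chosen with earlier results of these data known. Named besides the 5 genes are overlapping genes, the nearest tested gene on each side, the 3 genes most alike over the libraries (mean CPM of at least 1), the 3 just outside the ranks, and up to 4 called genes per list. Other listed genes were named for their role or a DESeq2 call, after their values were seen, and some listed genes are not reported here.

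Deviations from group means of same-numbered HBG1 guide libraries correlated at 0.55, 0.277 and 0.235 over 11668 genes, above the limit of 0.1, and the numbers were taken to pair the libraries. Crossed pairs of replicates 2 and 3 also correlated (0.254 and 0.19), so the values set replicate 1 apart but do not separate those pairs. Across guides they correlated at -0.065 and -0.07 and do not. No replicate pair was a repeat of 1 library (chi-square per gene 4.58 to 16.8).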

Additional observations from a re-analysis of the deposited data

How the results depend on the processing

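With the non-targeting guide the 5 genes kept their direction in 76 of 76 recomputations, DESeq2 giving no adjusted p for any of the 5 there. For each gene both rapamycin libraries lie on the same side of the only DMSO library. Most recomputations also left these 3 libraries as they were. A reversal was therefore hardly possible, and the kept direction is no test of the change. Over all 4 comparisons, 318 of 329 recomputed values kept their direction and 11, all in the guide comparison or the interaction, did not. With the HBG1 guide the groups of all 5 genes are separated, so the same limit holds there. The cause was not tested. Leaving out single libraries, the ABTB1 change with the non-targeting guide ran from 1.69 to 1.73 and that of ACE from 1.78 to 2.06, and the calls lost are given above. DDN, at -0.93, passed with the 3 non-targeting libraries alone and without both HBG1 guide replicate 1 libraries. Leaving out 1 library, the guide difference ran from -0.02 to 0.06 for ABTB1, -0.1 to 0.19 for ACE and -0.49 to 0.45 for TBX10, and the interaction from -0.09 to 0.06 for ABTB1 and -0.73 to 0.2 for TBX10. Without both replicate 1 libraries the guide difference of ABTB1 was -0.02 and its interaction 0, and with ACE and AC113554.1 added the interaction of ACE was 0.05.

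The count of genes called with the non-targeting guide, 211, was 720 with DESeq2, 668 with no low-count filter, 774 with the replicate block within guide, 1548 with the 3 non-targeting libraries alone and 1367 without both replicate 1 libraries. It ran from 0 to 514 when 1 library was left out, with 0 without non-targeting rapamycin replicate 1. With the HBG1 guide the count of 1609 was 3547 with the replicate block within guide and 3441 with the block on the 6 HBG1 guide libraries, and 664 to 1731 with 1 library left out. The guide comparison, with 7 genes, had 13 with DESeq2, 91 with no filter, 13 with a replicate block on the 5 rapamycin libraries, 37 without both replicate 1 libraries, and 3 to 8 with 1 library left out. The interaction, with 1 gene, had 0 with DESeq2, 8 with no filter, 0 with the strict filter, 5 with the block, 4 without both replicate 1 libraries, and 0 to 4 with 1 library left out. The block changed no call of the 5 genes. A block within guide cannot give the guide comparison, and the non-targeting contrast and the interaction were not run without their only DMSO library. Counts of 24 to 276 per gene and library limit the precision for the 5 genes.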
